A study of Mus musculus with 12 samples.

Results

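Of the genes of the unfolded protein response and the integrated stress response, 35 were followed across the 4 groups of the study. They were chosen by symbol as endoplasmic reticulum (ER) chaperones, stress transducers, targets of the transcription factor ATF4 and enzymes of serine synthesis. All 35 were found among the 56691 genes of the count table, and 33 had enough counts to be tested, among 14394 genes tested. The other 2, Chac1 and Phgdh, were too rare and are described from their summed counts. Together the 35 genes held between 0.498 and 0.578% of a library's counts.

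Proteins that fail to fold in the ER set off signalling through membrane sensors. IRE1 (gene Ern1) splices the Xbp1 mRNA, ATF6 is cut to release a transcription factor, and both outputs raise genes of chaperones and of ER-associated degradation. PERK (gene Eif2ak3) phosphorylates the initiation factor eIF2, which lowers general translation while the Atf4 mRNA is translated more. Other eIF2 kinases, which sense amino acid shortage, heme shortage or viral RNA, converge on the same step, and the shared programme is called the integrated stress response. ATF4 drives genes of amino acid synthesis and transport, and in osteoblasts it is known for its part in differentiation and in supplying amino acids for collagen. Splicing of Xbp1, cleavage of ATF6 and translation of Atf4 are not measured by counts per gene.

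The cells were MC3T3-E1, a mouse calvarial pre-osteoblast line that lays down and mineralizes a collagen matrix. Every group, controls included, was kept to day 28 with dexamethasone at 0.1 µM, ascorbic acid at 50 µg/ml and beta-glycerophosphate (BGP), which releases phosphate, at 10 mM. For the last 24 h, from day 27, 1 group received 25(OH)D (25-hydroxyvitamin D, the form that circulates and is converted to the active hormone) with ZK191784 (a ligand of the vitamin D receptor), both at 100 µM. Another group received 100 µM 25(OH)D with a further 4 mM BGP, another 100 µM 25(OH)D alone, and the control group none of these. Doses are as labelled, and the unit for 25(OH)D could not be checked. Each group had 3 libraries of 3′ mRNA sequencing with between 3318723 and 5170980 counts. The replicates are not said to be separate cultures, so a p-value here measures spread among libraries that may be technical.

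All 8 osteoblast markers looked up (among them Runx2, Col1a1, Bglap and Ibsp) were detected. Their summed level was 17635 to 25259 CPM (counts scaled to library size by TMM) with ZK191784, 4998 to 6095 with BGP, 4796 to 7774 with 25(OH)D alone and 33540 to 54303 in controls. Col1a1 and Ibsp made up most of this sum. Not all 8 were highest in controls, since Alpl had 24.2 to 32.8 CPM with ZK191784, 33.2 to 54.4 with BGP, 45.96 to 49.7 with 25(OH)D alone and 22.6 to 29.7 in controls, and Sp7 overlapped between groups. The summed markers of other cell types were lower, but this does not hold gene by gene. The leukocyte marker Ptprc had 125 to 281 CPM with BGP and 131 to 254 with 25(OH)D alone. Runx2 was below it there, at 69.4 to 70.9 and 69.7 to 93.1 CPM, and the 2 genes overlapped in the other groups. The 4 leukocyte markers summed to between 155 and 402 CPM with overlapping groups, and the 5 adipocyte markers to at most 9.28 CPM. The 3 endothelial markers summed to between 14.7 and 50.6 CPM with overlapping groups. This sum was mostly Pecam1, and Cdh5 was at 0 in all libraries. The 4 cartilage markers, mostly Col2a1, summed to 17.2 to 27.2 CPM with ZK191784, 1.96 to 2.78 with BGP, 1.58 to 3.48 with 25(OH)D alone and 17.5 to 55.9 in controls. The part of these markers in the results was not tested. Within groups the libraries also differed in the ratio of ribosomal protein gene counts to counts of pseudogenes and predicted genes. On the log2 scale it was −0.88, −1.22 and −1.68 with ZK191784, −1.76, −0.53 and −1.21 with BGP, −0.54, −1.25 and −1.86 with 25(OH)D alone, and −1.78, −1.88 and −0.67 in controls. Of the 33 genes 7 changed by more than 0.5 log2 units per unit of this ratio within groups (21.2%, against 44.5% of all genes). They were Ddit4 (0.96), Pdia6 (0.85), Manf (0.82), Herpud1 (0.82), Dnajc3 (0.68), Trib3 (−0.60) and Psph (0.53). Calls made when this ratio was a covariate are given beside the genes concerned.

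The comparison of 25(OH)D with control asks what the vitamin did to the stress response of mineralizing cells. The stress targets Ddit4 and Ppp1r15a rose, and the serine and folate enzymes Psat1 and Mthfd2 fell. None of the ER chaperones was called, though 3 were with the library ratio as a covariate. Of the 33 genes 2 were thus higher and 2 lower without that covariate, by edgeR's quasi-likelihood test at an adjusted p under 0.05, where 4.76% of all genes tested were higher and 3.93% lower. These shares are close to the background, so the counts say nothing particular to these genes. The median log2 fold change was −0.18 over the 33 genes and −0.05 over all genes. The 25(OH)D libraries lay wholly above the controls for 4 of the 33 (11.1% of all genes) and wholly below for 6 (10.8%). In bulk samples a change of level in each cell and a change in the mix of cells cannot be told apart.

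**Figure D1:**
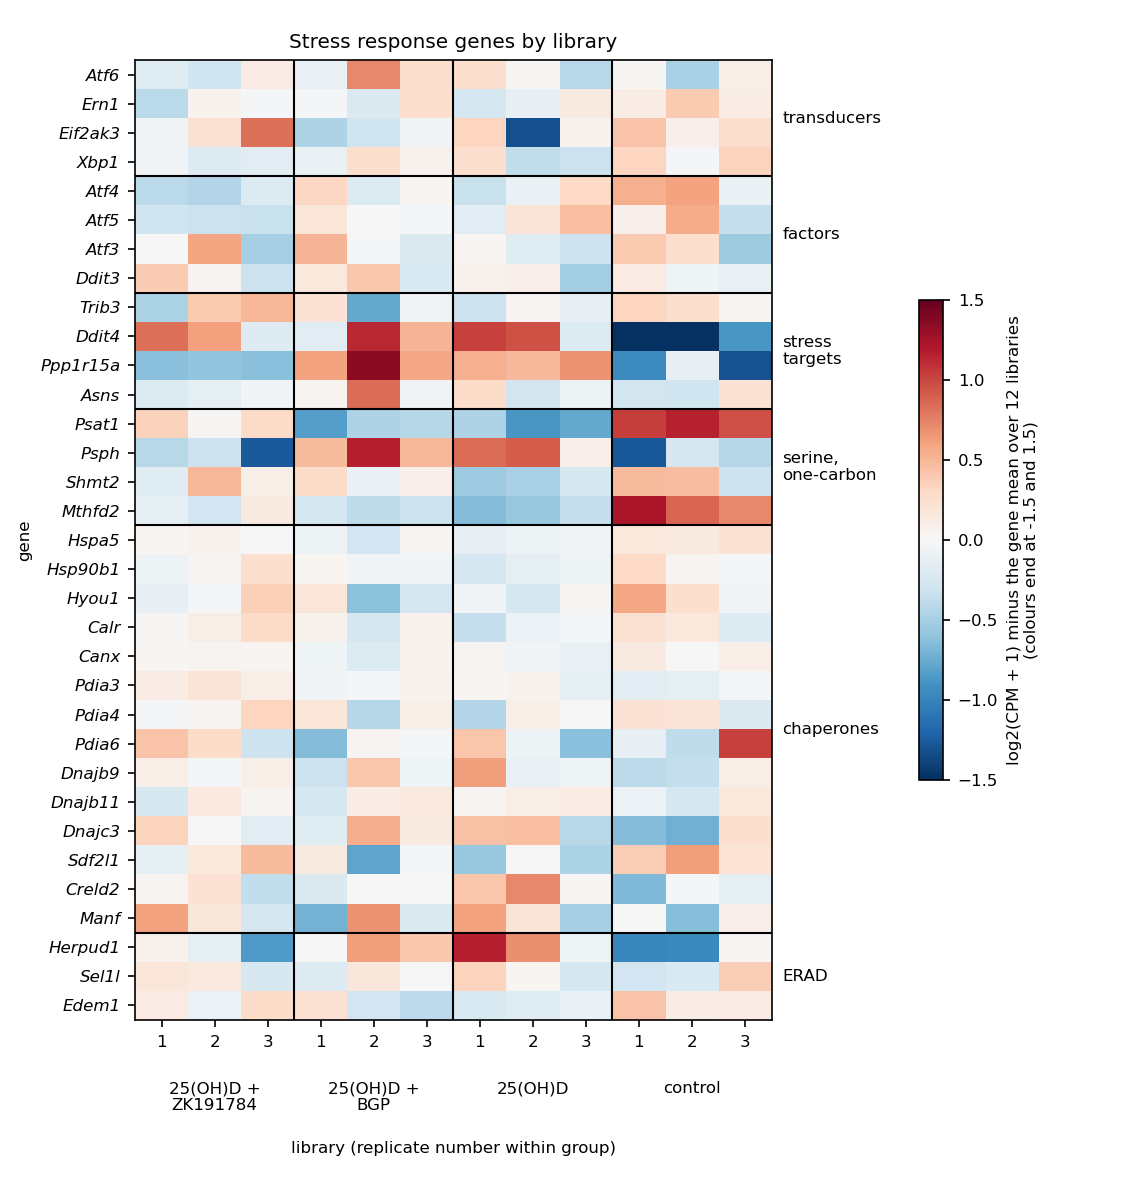
Heat map of the 33 tested genes (rows, by role) in the 12 libraries (columns, 4 groups of 3), coloured by log2(CPM + 1) minus the gene's mean over all libraries (colours end at −1.5 and 1.5). Psat1 and Mthfd2 are red in the control columns, Ddit4 is blue there, and the chaperones show no strong block of colour by group.

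**Figure D2:**
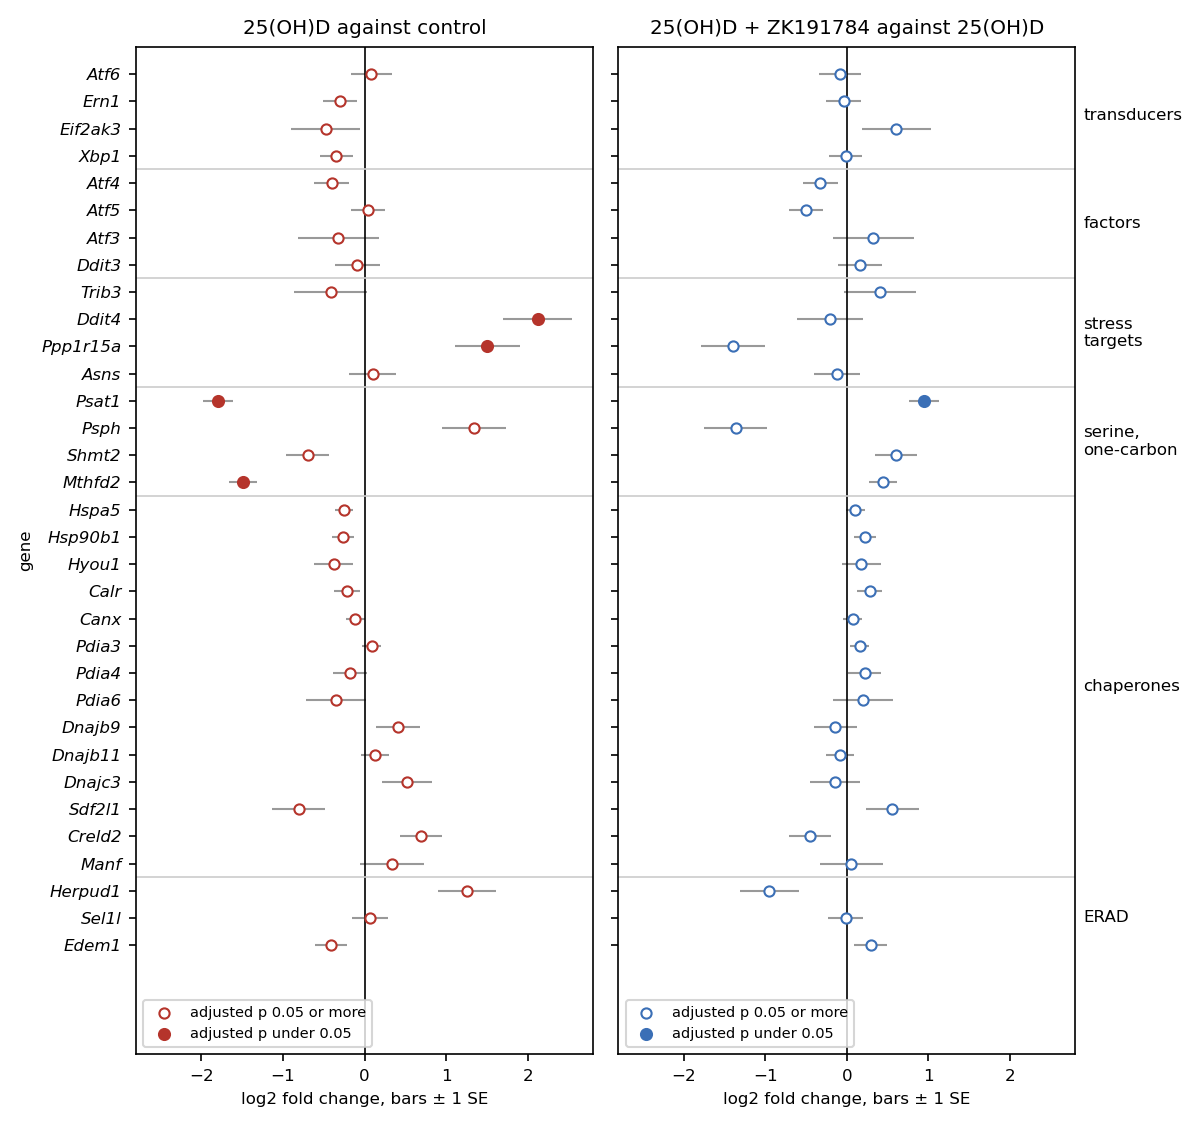
Log2 fold change of each tested gene (points) with its SE (bars), for 25(OH)D against control on the left and 25(OH)D with ZK191784 against 25(OH)D on the right; filled points had an adjusted p under 0.05. On the left Ddit4 and Ppp1r15a are filled to the right of 0 and Psat1 and Mthfd2 to the left, and on the right Psat1 alone is filled.

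The enzymes of serine synthesis and of mitochondrial folate metabolism, which turn a glycolytic intermediate into serine, glycine and charged folates, held the 2 smallest adjusted p of the 33, although Ddit4 had the larger log2 difference. Psat1, the phosphoserine aminotransferase, had 43.6, 34.5 and 41.5 CPM with ZK191784, 18.8, 24.4 and 25.1 with BGP, 24.3, 18.1 and 19.5 with 25(OH)D alone, and 71.0, 76.9 and 67.3 in controls. Every treated library was below every control, and the ZK191784 libraries were above those with BGP or with 25(OH)D alone. The gene fell by 1.80 on the log2 scale with 25(OH)D (SE 0.18, 20.7 ± 3.27 against 71.7 ± 4.85 CPM, mean ± SD, n = 3 each, edgeR adjusted p = 4.815e-05). Under all 13 alternatives it was called, with log2 differences between −1.93 and −1.69.

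Mthfd2, the mitochondrial methylenetetrahydrofolate dehydrogenase, had 66.5, 59.8 and 80.4 CPM with ZK191784, 60.6, 55.9 and 58.0 with BGP, 46.3, 48.9 and 57.1 with 25(OH)D alone, and 173, 134 and 121 in controls. The controls again lay above all treated libraries. It fell by 1.49 with 25(OH)D (SE 0.17, 50.8 ± 5.62 against 142.5 ± 26.9 CPM, adjusted p = 0.000119) and was called under all 13 alternatives (−1.58 to −1.33). Neither of these genes followed the library ratio closely within groups (0.08 log2 units per unit for Psat1 and −0.23 for Mthfd2).

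The remaining enzymes did not share that direction as a group. Psph, the phosphoserine phosphatase that completes serine synthesis, had 8.19, 8.92 and 4.13 CPM with ZK191784, 15.99, 26.5 and 16.4 with BGP, 20.9, 21.9 and 11.9 with 25(OH)D alone, and 4.08, 9.27 and 8.09 in controls. The libraries with 25(OH)D alone or with BGP were all above those with ZK191784 and the controls. For 25(OH)D against control the log2 difference was 1.34 ± 0.39 (SE), just short of the threshold (adjusted p = 0.0533). It was called with RLE size factors (adjusted p = 0.0489), with DESeq2 (0.0102) and without 25(OH)D library 3 (0.0290), the library with the lowest Psph and the lowest ratio of its group. With the ratio as a covariate the difference was 1.19 (adjusted p = 0.00130).

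Shmt2, the mitochondrial serine hydroxymethyltransferase, had 22.1, 35.9 and 26.7 CPM with ZK191784, 30.6, 23.3 and 26.6 with BGP, 16.8, 17.6 and 21.1 with 25(OH)D alone, and 35.3, 34.99 and 19.98 in controls. Control library 3 fell within the range of the 25(OH)D libraries. The log2 difference of −0.70 ± 0.26 did not pass (adjusted p = 0.138), and without control library 3 it was −0.91 (adjusted p = 0.0356). After adjusting for the library ratio it was −0.58 (adjusted p = 0.0267).

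Phgdh, the dehydrogenase that opens the serine pathway, was counted 12, 4 and 0 times with ZK191784, 1, 4 and 0 times with BGP, 2, 0 and 1 times with 25(OH)D alone, and 4, 2 and 7 times in controls. The sum of 3 with 25(OH)D against 13 in controls gave a ratio of 0.259 per unit of library size, with a 95% interval of 0.0474 to 0.944 that covers counting error only. The exact permutation test (two-sided) gave p = 0.2, and 3 against 3 libraries cannot give less than 0.1.

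The promoters of Psat1 and Mthfd2 are printed because these genes had the smallest adjusted p of the 33. The windows run from 250 bases before to 50 after the gene start (RefSeq, GRCm38.p6), and Psat1 has a further window at chr19:15924573-15924872. Capitals mark CCAAT and CCACG on either strand. These are the letters that make up the ER stress response element when they stand 9 bases apart, which they do in neither window.
Psat1, chr19:15925010-15925309, minus strand: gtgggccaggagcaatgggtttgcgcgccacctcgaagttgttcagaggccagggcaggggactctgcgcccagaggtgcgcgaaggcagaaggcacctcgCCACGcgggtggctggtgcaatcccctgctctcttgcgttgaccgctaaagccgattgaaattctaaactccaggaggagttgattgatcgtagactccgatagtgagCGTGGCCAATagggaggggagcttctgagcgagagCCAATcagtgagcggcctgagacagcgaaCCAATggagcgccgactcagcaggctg
Mthfd2, chr6:83317555-83317854, minus strand: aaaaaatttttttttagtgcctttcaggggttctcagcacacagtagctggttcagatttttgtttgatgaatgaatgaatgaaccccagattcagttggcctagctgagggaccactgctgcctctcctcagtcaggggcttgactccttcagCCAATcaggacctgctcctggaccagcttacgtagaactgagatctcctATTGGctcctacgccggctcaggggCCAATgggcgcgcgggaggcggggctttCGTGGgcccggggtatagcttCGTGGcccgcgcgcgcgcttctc

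**Figure D3:**
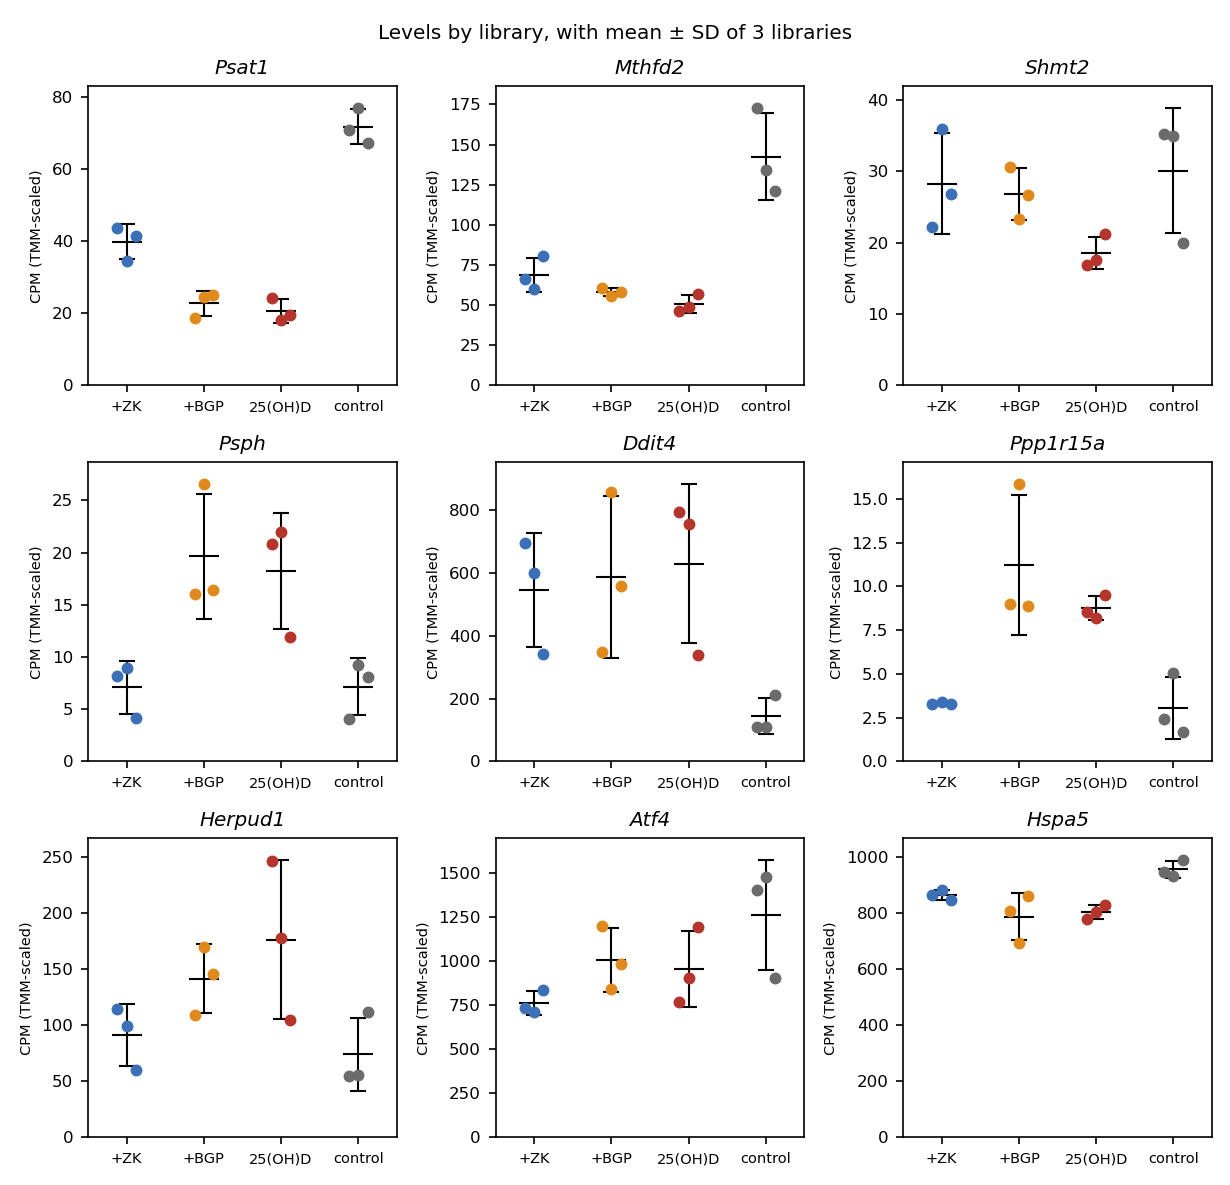
CPM of 9 genes in each library (points) with the group mean and SD (bars, n = 3), for 25(OH)D with ZK191784 (+ZK), 25(OH)D with BGP (+BGP), 25(OH)D alone and control; each panel has its own linear axis from 0. Psat1 and Mthfd2 are highest in controls, Ddit4 is lowest there, and Psph and Ppp1r15a are high with BGP and with 25(OH)D alone.

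Among the stress targets, Ddit4 (REDD1), an inhibitor of mTORC1 that ATF4, hypoxia and glucocorticoids are known to raise, had 694, 600.3 and 342 CPM with ZK191784, 347, 859 and 557 with BGP, 794, 756 and 338 with 25(OH)D alone, and 111, 111 and 212 in controls. All 9 treated libraries were above all controls. It rose by 2.12 ± 0.42 on the log2 scale with 25(OH)D (629 ± 253 against 144.7 ± 58.5 CPM, adjusted p = 0.00647). Within groups Ddit4 followed the library ratio, and with the ratio as a covariate the difference was 1.90 (adjusted p = 1.454e-13). The call was lost when no low-count filter was used (adjusted p = 0.0800).

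Ppp1r15a (GADD34), the phosphatase subunit that reverses eIF2 phosphorylation, had 3.28, 3.38 and 3.26 CPM with ZK191784, 8.98, 15.8 and 8.87 with BGP, 8.56, 8.196 and 9.51 with 25(OH)D alone, and 2.40, 5.06 and 1.67 in controls. The libraries with 25(OH)D alone or with BGP did not overlap with the other groups. It rose by 1.502 ± 0.40 with 25(OH)D (adjusted p = 0.0335). The counts behind it were few (32, 34 and 36 with 25(OH)D, 10, 24 and 7 in controls). The call was lost without 25(OH)D library 1 (adjusted p = 0.0809), 2 (0.0816) or 3 (0.0744), without control library 1 (0.129) or 3 (0.0871), and when the 2 groups were fitted alone (0.121).

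Other stress targets did not pass. Asns, the asparagine synthetase and a textbook ATF4 target, had 14.7, 15.4 and 16.5 CPM with ZK191784, 17.7, 31.3 and 16.4 with BGP, 20.9, 13.98 and 16.1 with 25(OH)D alone, and 13.9, 13.7 and 19.98 in controls. The groups overlapped, and the log2 difference for 25(OH)D against control was 0.10 ± 0.28 (95% interval −0.52 to 0.71). Trib3, a pseudokinase raised by ATF4 and CHOP, had 2.05, 4.58 and 5.001 CPM with ZK191784, 3.93, 1.499 and 3.09 with BGP, 2.41, 3.38 and 2.91 with 25(OH)D alone, and 4.32, 4.00 and 3.33 in controls. Its log2 difference was −0.42 ± 0.45 (−1.39 to 0.55). Chac1, which degrades glutathione and is a target of ATF4, was counted 12 times over the ZK191784 libraries, 16 with BGP, 13 with 25(OH)D alone and 18 in controls. Per unit of library size 25(OH)D had 0.812 times the control count, with a counting interval of 0.366 to 1.75 and p = 0.7 by exact permutation.

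The transcription factors of the response did not pass either. Atf4 itself had 734, 712 and 839 CPM with ZK191784, 1199, 840.1 and 987 with BGP, 768, 906 and 1192 with 25(OH)D alone, and 1404, 1477 and 904 in controls. Control library 3 overlapped with the treated libraries. The log2 difference for 25(OH)D against control was −0.40 ± 0.21 (95% interval −0.87 to 0.06, adjusted p = 0.345). Ddit3, which encodes the pro-apoptotic factor CHOP, had 20.5, 15.9 and 12.2 CPM with ZK191784, 17.4, 20.8 and 13.1 with BGP, 16.3, 16.4 and 10.6 with 25(OH)D alone, and 17.0, 14.8 and 14.3 in controls. Its difference was −0.09 ± 0.27 (−0.68 to 0.50). Atf5, a factor translated under stress much as Atf4 is, differed by 0.04 ± 0.21, and Atf3, an early stress-induced factor, by −0.32 ± 0.49 at 2.49 ± 0.42 against 3.11 ± 1.27 CPM.

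Of the 4 transducers none was called, and none had an unadjusted p under 0.05. Xbp1 had 39.1, 35.2 and 35.7 CPM with ZK191784, 37.6, 48.4 and 42.0 with BGP, 48.1, 30.9 and 32.0 with 25(OH)D alone, and 50.6, 39.4 and 50.9 in controls. Its difference for 25(OH)D against control was −0.34 ± 0.20 (−0.78 to 0.09, adjusted p = 0.397), and −0.43 (adjusted p = 0.0440) after adjusting for the library ratio. The sensor genes Ern1, Eif2ak3 and Atf6 differed by −0.30 ± 0.21, −0.48 ± 0.42 and 0.08 ± 0.26, with overlapping groups.

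The elements that ATF4 and its partners of the C/EBP family are known to bind were searched as TGATGNAAN and TTGCATCA, on both strands, in windows of the same kind. Every one of the 13 genes set as ATF4 targets had a window, and Atf5 and Psat1 had 2. The shares of the 13 are by gene, those of all promoters by window. TGATGNAAN was found for 4 of them (30.8%), against 3.96% of 32817 promoters, and TTGCATCA for 2 (15.4%, against 0.896%), where it overlapped the longer match. The sites of these 4 genes are printed. Chac1 was too rare to be tested, and Asns, Trib3 and Atf3 were not called. Trib3 and Atf3 had few counts (174 and 153 over all libraries). The windows of the called genes Psat1, Mthfd2, Ddit4 and Ppp1r15a held neither motif. Nor did those of Psph, Shmt2, Atf5 and Ddit3, which were not called, or of Phgdh, which was not tested. Of the genes with a motif only Asns, Trib3 and Atf3 could be compared between groups. Whether having a motif goes with a call was not tested. No match says only that these letters are not in this window. Capitals mark TGATGNAAN, read along the strand given.
Asns, chr6:7693214-7693242, minus strand: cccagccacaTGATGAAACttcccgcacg
Trib3, chr2:152344029-152344057, plus strand: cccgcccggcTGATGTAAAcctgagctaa
Chac1, chr2:119351038-119351066, minus strand: ctggcaggagTGATGCAACggcagggaag
Atf3, chr1:191183426-191183454, plus strand: gcggacttggTGATGCAAGtgcgagaagg

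None of the 14 chaperones and folding enzymes was called with 25(OH)D. Their log2 differences ran between −0.81 and 0.69 with a median of −0.15, 3 had an unadjusted p under 0.05, and DESeq2 called none. Hspa5, which encodes BiP, the ER Hsp70 that also holds the sensors inactive, had 865, 881 and 847 CPM with ZK191784, 808, 695 and 860.3 with BGP, 778, 805 and 828 with 25(OH)D alone, and 948, 932 and 989 in controls. The controls lay above every treated library, by little. The difference of −0.25 ± 0.11 (95% interval −0.50 to −0.00198) did not pass over all genes (adjusted p = 0.251).

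Hsp90b1, the ER Hsp90 (GRP94), had 233, 249 and 292 CPM with ZK191784, 250.2, 237 and 238 with BGP, 205, 223 and 232 with 25(OH)D alone, and 301, 252 and 239 in controls. It differed by −0.26 ± 0.14 (adjusted p = 0.320), with the controls above the libraries of 25(OH)D alone. The lectin chaperones Calr and Canx, which hold glycoproteins until folded, differed by −0.22 ± 0.16 and −0.11 ± 0.12. The disulfide isomerases Pdia3, Pdia4 and Pdia6 differed by 0.09 ± 0.12, −0.18 ± 0.21 and −0.35 ± 0.37. The Hsp70 nucleotide exchange factor Hyou1 differed by −0.38 ± 0.24.

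The J-domain cochaperones of BiP were likewise not called. Dnajb9 (ERdj4), a target of XBP1 that holds IRE1 inactive, differed by 0.41 ± 0.27, Dnajb11 (ERdj3) by 0.13 ± 0.18 and Dnajc3 (p58IPK), an inhibitor of PERK, by 0.52 ± 0.31. Sdf2l1, an ER protein induced by stress that works with Dnajb11, had 8.60, 10.8 and 13.7 CPM with ZK191784, 10.7, 5.14 and 9.45 with BGP, 6.15, 9.64 and 6.60 with 25(OH)D alone, and 12.7, 15.4 and 11.2 in controls. Creld2, an ER protein induced by stress, had 20.7, 23.4 and 15.2 CPM with ZK191784, 17.1, 19.9 and 19.9 with BGP, 27.0, 33.8 and 20.3 with 25(OH)D alone, and 12.2, 19.8 and 18.1 in controls. These 2 genes did not overlap between 25(OH)D and control and pointed in opposite directions, Sdf2l1 at −0.81 ± 0.32 (adjusted p = 0.178) and Creld2 at 0.69 ± 0.26 (0.139). Manf, a neurotrophic factor kept in the ER, differed by 0.33 ± 0.39. With the library ratio as a covariate Dnajc3 (0.39, adjusted p = 0.0185) and Creld2 (0.63, 0.0287) were called higher and Pdia6 (−0.48, 0.00234) lower, so the count of 0 of 14 depends on leaving the ratio out.

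The ER stress response element, CCAAT and CCACG with 9 bases between, is the site through which ATF6 and XBP1 are known to act on chaperone genes. It was found on either strand in the windows of 7 of the 12 chaperone genes that had one (58.3%), in none of the 13 ATF4 targets and in 39 of 32817 promoters (0.119%). CCACG alone was in 32.8% and CCAAT alone in 37.4% of all promoters. The UPR element core TGACGTGG was in none of either set and in 0.676% of all. The sites printed are 4 of these, those of BiP, of both lectin chaperones and of Creld2, with CCAAT and CCACG in capitals. They were picked after the search, and the chaperones that hold the element include genes on both sides of 0 in the comparison.
Hspa5, chr2:34772015-34772053, plus strand: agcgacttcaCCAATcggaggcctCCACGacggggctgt
Calr, chr8:84847065-84847103, plus strand: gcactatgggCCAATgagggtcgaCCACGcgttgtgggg
Canx, chr11:50325790-50325828, minus strand: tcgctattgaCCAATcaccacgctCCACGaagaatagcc
Creld2, chr15:88819510-88819548, minus strand: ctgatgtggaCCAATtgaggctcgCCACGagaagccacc

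Genes of ER-associated degradation, which clears misfolded proteins to the proteasome, held 1 near call. Herpud1, a membrane scaffold of the degradation complex, had 114, 98.8 and 60.2 CPM with ZK191784, 109, 169.8 and 145 with BGP, 246, 178 and 104 with 25(OH)D alone, and 54.7, 55.4 and 111 in controls. Its lowest 25(OH)D library lay under its highest control. Both were the libraries at the ends of the ribosomal ratio in their groups, and Herpud1 followed that ratio within groups. The difference of 1.25 ± 0.36 was at the threshold (adjusted p = 0.05002, not called). It was called with RLE size factors (0.0482), DESeq2 (0.0129), without 25(OH)D library 3 (0.0167) or control library 3 (0.00955), and with the ratio as a covariate (1.07, adjusted p = 1.298e-08). Sel1l, the adaptor of the ubiquitin ligase, differed by 0.07 ± 0.22, and Edem1, which trims mannose from misfolded glycoproteins, by −0.41 ± 0.20 (adjusted p = 0.282). Among the 32 genes followed that had a window, Herpud1 was the only 1 outside the ATF4 set with TGATGNAAN. Its window also held TTGCATCA, which overlapped that match.

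Adding ZK191784 to 25(OH)D asks which of these levels the receptor ligand altered. Psat1 was the 1 gene of the 33 called, and it was higher with ZK191784. The background was 1.42% of all genes higher and 2.11% lower. Psat1 rose 1.93-fold, by 0.95 ± 0.18 on the log2 scale (39.9 ± 4.79 against 20.7 ± 3.27 CPM, n = 3 each, edgeR adjusted p = 0.0109). The call was lost without ZK191784 library 1 (adjusted p = 0.0547) or 25(OH)D library 2 (0.0637). The median log2 difference was 0.07 over the 33 genes and 0.02 over all genes. The ZK191784 libraries lay wholly above those of 25(OH)D for 8 of the 33 genes (8.57% of all genes) and wholly below for 3 (9.02%).

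The 8 genes above were Psat1, Mthfd2, Shmt2, Hspa5, Hsp90b1, Calr, Pdia3 and Edem1. Mthfd2 differed by 0.44 ± 0.17 (adjusted p = 0.280) and Shmt2 by 0.61 ± 0.26 (0.371). The chaperones among the 8 differed by 0.11 ± 0.11 (Hspa5), 0.23 ± 0.14 (Hsp90b1), 0.28 ± 0.16 (Calr) and 0.16 ± 0.12 (Pdia3), and Edem1 by 0.29 ± 0.20. No chaperone of the 14 had an unadjusted p under 0.05 in this comparison, and their median was 0.13.

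The 3 genes below were Ppp1r15a, Psph and Atf5. Ppp1r15a differed by −1.40 ± 0.39 (3.304 ± 0.06 against 8.75 ± 0.68 CPM, adjusted p = 0.0846) and Psph by −1.36 ± 0.39 (7.08 ± 2.58 against 18.2 ± 5.52 CPM, 0.0905). DESeq2 called both (adjusted p = 0.0170 and 0.0151), as did the fit of the 2 groups alone for Ppp1r15a (0.0479) and the fit without the low-count filter for Psph (0.00873). Atf5 differed by −0.50 ± 0.21 (adjusted p = 0.354). Herpud1 differed by −0.95 ± 0.36 (adjusted p = 0.259), with 1 ZK191784 library above the lowest 25(OH)D library, and was called only without the low-count filter (0.00368) and with the ratio as a covariate (8.924e-07). Ddit4 (−0.21 ± 0.41, 95% interval −1.09 to 0.67) and Atf4 (−0.33 ± 0.21, −0.79 to 0.14) did not pass. When the fit adjusted for the ratio, Psph (adjusted p = 0.000427), Atf5 (0.00291), Ppp1r15a (0.00606) and Atf4 (−0.33, 0.0325) were also called lower, and Mthfd2 (0.0229) and Shmt2 (0.0338) higher.

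Phgdh had 16 counts over the ZK191784 libraries, 12 of them in library 1, against 3 with 25(OH)D alone. The ratio was 4.57 (95% counting interval 1.31 to 24.5), and the exact permutation test over libraries gave p = 0.4. Chac1 had 12 counts with ZK191784 and 13 with 25(OH)D (ratio 0.790, 0.330 to 1.88).

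When BGP was added to 25(OH)D, edgeR called none of the 14394 genes tested (0%, with 268 at an unadjusted p under 0.05), and DESeq2 called 0. None of the 33 had an unadjusted p under 0.05. After adjusting for the library ratio 6 genes were called, none of them among the 33. The median log2 difference of the 33 was 0.05, against −0.02 over all genes. The ends of the range were Shmt2 at 0.53 ± 0.26 (26.8 ± 3.62 against 18.5 ± 2.29 CPM) and Creld2 at −0.51 ± 0.26 (19.0 ± 1.603 against 27.0 ± 6.71 CPM), both without overlap. For Psat1 the 95% interval of the difference was −0.26 to 0.54, for Mthfd2 −0.18 to 0.57 and for Ddit4 −0.98 to 0.78.

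The combinations were also set against control, with the same 3 control libraries as 25(OH)D alone, so the comparisons are not independent. With BGP, Ddit4 (2.02 ± 0.42, adjusted p = 0.00886), Ppp1r15a (1.86 ± 0.39, 0.00962) and Psph (1.45 ± 0.39, 0.0371) rose, and Psat1 (−1.65 ± 0.18, 8.714e-05) and Mthfd2 (−1.29 ± 0.17, 0.000370) fell. The background was 3.9% of all genes higher and 4.35% lower. The Psph call was lost without BGP library 2 (adjusted p = 0.146) or 3 (0.0623) or without any 1 control library (0.0549 to 0.136), and the Ddit4 call without control library 2 (0.0517) or without the low-count filter (0.0993). With the 2 groups fitted alone the calls of Ppp1r15a (0.0681) and Psph (0.0726) were lost. No chaperone was called, and Hspa5 differed by −0.28 ± 0.11 (adjusted p = 0.197). When the fit adjusted for the ratio, Pdia6 was called lower (−0.62, adjusted p = 0.000125), and Dnajc3 (0.35, 0.0431) and Herpud1 (0.77, 7.858e-06) higher. Herpud1 was also called without the low-count filter (0.00107) and without control library 3 (0.0284).

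With ZK191784, Mthfd2 was the 1 gene of the 33 called against control. It fell by 1.05 (SE 0.17, adjusted p = 0.0123), where 0.507% of all genes were higher and 0.215% lower. The call was lost without ZK191784 library 1 (adjusted p = 0.0864) or 2 (0.0951) or control library 1 (0.0683), and with the 2 groups alone (0.114). Psat1 differed by −0.85 ± 0.18 (adjusted p = 0.0544, and 0.0479 with RLE size factors) and Ddit4 by 1.91 ± 0.42 (0.0698, and 0.00116 with DESeq2), both without overlap. Ddit4 was also called without control library 3 (0.0426), Psat1 with DESeq2 (0.000445), and both after adjusting for the ratio (9.605e-12 for Ddit4 and 0.000109 for Psat1). Ppp1r15a and Psph differed by 0.10 ± 0.42 and −0.02 ± 0.40. Atf4 was lower in all 3 ZK191784 libraries than in any control (−0.73 ± 0.21) but did not pass (adjusted p = 0.2496). It was called without the low-count filter (0.00283) and after adjusting for the library ratio (9.92e-05).

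Chaperones and ATF4 targets were then set side by side. Per library, the mean log2 level of the 14 chaperones relative to their mean over 12 libraries was compared with that of the 11 tested ATF4 targets. The chaperone mean lay between −0.17 and 0.11 in all 12 libraries. It averaged 0.08 ± 0.02 with ZK191784, −0.07 ± 0.07 with BGP, −0.02 ± 0.13 with 25(OH)D alone and 0.01 ± 0.09 in controls (SD, n = 3). The ZK191784 libraries (0.08, 0.10 and 0.06) lay above those with BGP and, narrowly, those with 25(OH)D alone (at most 0.0593), while the other groups overlapped with each other and the controls with all. The ATF4 target mean averaged −0.08 ± 0.14 with ZK191784, 0.15 ± 0.13 with BGP, −0.01 ± 0.10 with 25(OH)D alone and −0.06 ± 0.15 in controls. The difference between both sets was 0.16 ± 0.12, −0.22 ± 0.16, −0.0047 ± 0.035 and 0.06 ± 0.25 in that order of groups, and no p is given for it because the genes were chosen with results known.

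The ATF4 targets were also averaged in 2 parts. Over the 7 stress targets and factors the mean was −0.07, 0.10 and −0.23 with ZK191784, 0.25, 0.42 and 0.08 with BGP, 0.21, 0.19 and −0.02 with 25(OH)D alone, and −0.30, −0.17 and −0.46 in controls. The libraries with BGP or with 25(OH)D alone were above all controls. Ddit4 and Ppp1r15a, which rose with 25(OH)D, are among the 7, and none of the others was called. Over all 11 tested ATF4 targets no group was set apart, by means or by medians, and no median was taken over the 7 alone. The median over the 11 was −0.12 ± 0.12 with ZK191784, 0.04 ± 0.13 with BGP, −0.04 ± 0.15 with 25(OH)D alone and 0.03 ± 0.31 in controls (SD, n = 3). Over the 4 serine and folate enzymes the mean was −0.10, −0.02 and −0.21 with ZK191784, −0.08, 0.07 and −0.04 with BGP, −0.20, −0.26 and −0.32 with 25(OH)D alone, and 0.35, 0.56 and 0.23 in controls. The controls were above all treated libraries. Psat1 and Mthfd2, which fell with 25(OH)D, are among the 4. Shmt2 was not called, and Psph, also not called, pointed the other way. With 25(OH)D against control 2 of the 11 tested ATF4 targets were higher and 2 lower (median −0.09), against 0 and 0 of the 14 chaperones (median −0.15). Both medians lie near that of all genes.

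**Figure D4:**
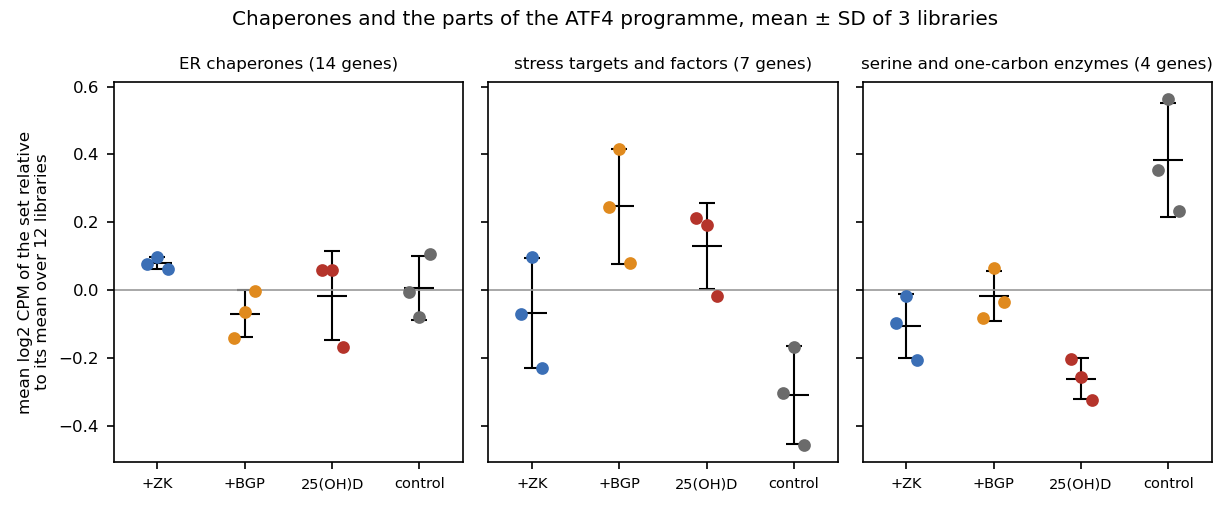
Mean log2 CPM of 3 sets of genes relative to each set's mean over the 12 libraries (points, 1 per library; bars, group mean and SD, n = 3), for 25(OH)D with ZK191784 (+ZK), with BGP (+BGP), alone, and control. The chaperones stay between −0.17 and 0.11, the stress targets have their lowest mean in controls and the serine and folate enzymes their highest. Of the stress targets and factors only Ddit4 and Ppp1r15a were called with 25(OH)D against control, and of the enzymes only Psat1 and Mthfd2.

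Further genes of the same pathways were read from lists set by function. Among 22 tested genes of amino acid synthesis and transport and other ATF4 targets (the list also holds Atf2, a factor related to ATF4), 5 were higher and 3 lower with 25(OH)D (median 0.12), beside 4.76% and 3.93% of all genes. Pycr1, the mitochondrial enzyme that makes proline, fell by 2.62 on the log2 scale (SE 0.30), to 4.81, 4.82 and 2.38 CPM with 25(OH)D, against 25.2, 25.9 and 23.1 in controls. Aldh1l2, a mitochondrial folate dehydrogenase, fell by 3.76 (SE 0.43), to 0.802, 1.45 and 0.528 CPM with 25(OH)D, against 14.6, 10.5 and 14.04 in controls. Cebpb, which encodes the ATF4 partner C/EBPβ, rose by 1.77 ± 0.14 (1494 ± 172 against 439 ± 29.9 CPM), and Gdf15, a secreted stress cytokine, rose by 1.89 ± 0.28 (61.1 ± 12.9 against 16.4 ± 4.61 CPM). Slc1a4, a neutral amino acid transporter, rose by 1.14 ± 0.18 and Nupr1, a stress-induced cofactor, by 0.97 ± 0.12. The remaining calls were Jdp2, a repressor of the AP-1 family (0.92 ± 0.17), and Vldlr, a lipoprotein receptor (−1.06 ± 0.29, adjusted p = 0.0368). The Vldlr call was lost without 25(OH)D library 1 (0.0580), 2 (0.102) or 3 (0.109) or control library 2 (0.0607) or 3 (0.0960).

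In the comparison of 25(OH)D with ZK191784 against 25(OH)D, which shares its 25(OH)D libraries with the comparison to control, 2 of the 22 were higher and 3 lower (median −0.08), beside 1.42% and 2.11% of all genes. Pycr1 had 13.3, 17.1 and 10.9 CPM with ZK191784, against 4.81, 4.82 and 2.38 with 25(OH)D, and rose by 1.77 ± 0.30 (adjusted p = 0.00446). Aldh1l2 rose by 2.07 ± 0.45 (adjusted p = 0.0226), a call lost without ZK191784 library 2 (0.0635) or 3 (0.0994) or 25(OH)D library 1 (0.100) or 3 (0.0905). Slc1a4 fell by 1.35 (SE 0.18, 22.4 ± 1.69 against 57.3 ± 4.999 CPM), Cebpb by 1.10 (SE 0.13) and Gdf15 by 1.43 (SE 0.27). The Gdf15 call was lost without ZK191784 library 1 (adjusted p = 0.0588) or 2 (0.0615).

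**Figure D5:**
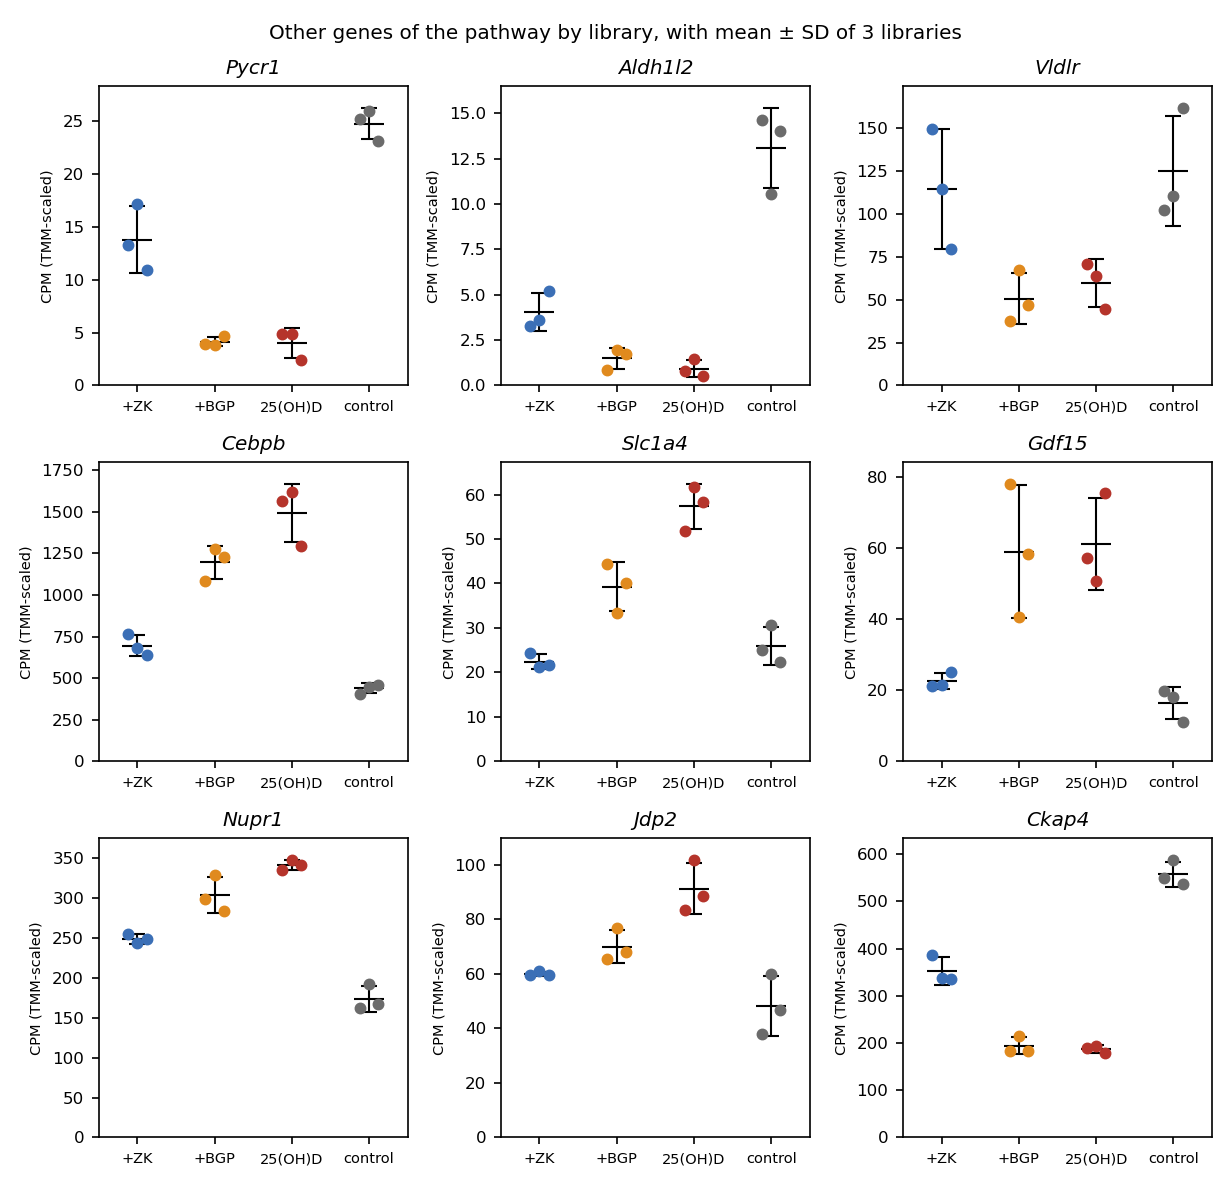
CPM of 9 further genes of these pathways in each library (points) with the group mean and SD (bars, n = 3), groups as in the plot of stress response genes; each panel has a linear axis from 0. Pycr1, Aldh1l2 and Ckap4 are highest in controls and lie between controls and 25(OH)D with ZK191784 added, and Cebpb, Slc1a4 and Gdf15 are high with 25(OH)D alone or with BGP.

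Lists of the general stress machinery held no calls with 25(OH)D by edgeR. None of the 18 cytosolic aminoacyl-tRNA synthetases, which ATF4 is known to raise, was called (median −0.19), none of 12 eIF2 kinases and initiation factors (0.04), none of 7 other ER sensors and proteases (0.07), none of 9 mitochondrial chaperones and proteases (0.17) and none of 9 further genes of glycine and folate metabolism (−0.23). In that order of lists 2, 0, 0, 2 and 3 genes had an unadjusted p under 0.05. DESeq2 called 1 synthetase lower and 1 mitochondrial chaperone or protease higher. With the library ratio as a covariate 2 of the synthetases and 3 of the glycine and folate genes were lower, 1 mitochondrial gene was higher, and of the ER sensors and proteases 1 was higher and 1 lower. Without control library 3, 1 synthetase and 1 glycine or folate gene were lower.

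Further lists covered ER machinery, beside a background of 4.76% of all genes higher and 3.93% lower. Of 18 other folding enzymes 3 were lower and 0 higher (median −0.36). Only 2 were lower without any 1 of the 25(OH)D libraries or without control library 1 or 2. The call lost was that of Erp29 (−0.57 ± 0.15). Ckap4, an ER-shaping membrane protein, fell by 1.58 (SE 0.12), to 189.6, 193 and 178 CPM with 25(OH)D, against 549, 587 and 536 in controls, and Fkbp14, a prolyl isomerase for collagen, also fell by 1.58 (SE 0.28). Of 10 collagen chaperones and hydroxylases 2 were lower, Fkbp10 (−1.01 ± 0.15) and P3h1 (−1.46 ± 0.29), and the lysyl hydroxylase Plod1 was higher (0.95 ± 0.18). Of 21 genes of translocation and ER-to-Golgi transport 3 were lower, led by Serp1 (−0.95 ± 0.20), but only 1 without 25(OH)D library 2 or 3. Of 12 other ER-associated degradation genes 1 was lower, Selenos, and 0 without any 1 of the 25(OH)D libraries or without control library 3. Of 10 cytosolic heat shock proteins 2 were higher, Hsph1 and Hspa4, and 1 lower, Dnajb1. Both counts were 0 without 25(OH)D library 1. Leaving out control library 2 also left 0 higher, and leaving out either 25(OH)D library 2 or control library 3 left 1. The lower gene was lost without 25(OH)D library 2 or 3 or control library 1 or 3.

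With ZK191784 added to 25(OH)D, Ckap4 had 386, 337 and 335 CPM and rose by 0.91 ± 0.12 (adjusted p = 0.00102), above all 25(OH)D libraries. Plod1 fell by 1.17 (SE 0.18, 37.6 ± 7.68 against 84.6 ± 7.31 CPM, adjusted p = 0.00280). Fkbp10 (0.69 ± 0.15, adjusted p = 0.0231) and Hsph1 (−0.71 ± 0.16, 0.0239) were also called, and both calls were lost when single libraries were left out. Leaving out ZK191784 library 2 gave an adjusted p of 0.0976 for Fkbp10 and 0.148 for Hsph1, and leaving out 25(OH)D library 1 gave 0.0728 and 0.119. In the remaining lists of ER-associated degradation, transport, synthetases, initiation factors, sensors, mitochondrial chaperones and folate genes no gene was called. After adjusting for the library ratio, 2, 3, 2, 1, 0, 1 and 1 genes of these lists were called in the order given.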

How the data were processed

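RNA of 12 MC3T3-E1 libraries was sequenced with a QuantSeq 3′ kit. The deposited values are counts per gene symbol and library. Per the submitters' processing notes, STAR 2.7.9a, featureCounts of Subread 2.0.3, DESeq2 1.38.2 (its role is not given) and the mouse genome mm39 were used. With strand setting and annotation not given in the sources used here, overlapping and antisense genes cannot be told apart, and reads of close copies could be split.

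Of 56691 genes, 882 were repeats of a symbol (kept apart, the plain symbol going to the entry with most counts), and 14394 passed filterByExpr at a minimum count of 10 and a minimum total of 15. A quasi-likelihood model (edgeR 4.0.16, R 4.3.3, TMM, robust, 1 coefficient per group, no block) was fitted to all 12 libraries, and genes were called at a Benjamini-Hochberg adjusted p under 0.05 over all genes. Each SE is approximate, the size of the log2 change over the root of its F, and intervals are 95%. Set means used log2 CPM with a prior count of 2. Low counts were summed by group with exact binomial intervals and compared by exact permutation. The fit was tested on simulated counts.

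The genes and lists were chosen with earlier results of these data known. The 35 genes were all named. Values per library are given for called genes and for a set chosen by role, and of other lists at most 4 called genes per comparison were to be named, by smallest p. Others were added after their values were seen. Alternatives were RLE size factors, DESeq2 1.42.0, dropping the filter, a stricter one (3 libraries at a CPM of 2), the replicate number as a block, fits to 2 groups only, leaving out each library, and the library ratio as a covariate. Promoters came from RefSeq (GRCm38.p6, for 32 of 35 genes, not for Atf6, Hyou1 and Manf). Figures used matplotlib 3.10.9.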

Additional observations from a re-analysis of the deposited data

How the results depend on the processing

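Of 2145 values of single genes under the alternatives, 1937 kept their direction and their side of the threshold, 44 became called, 22 lost a call and 142 changed sign without a call, the largest of these at a difference of 0.49. No called gene reversed. Psat1 and Mthfd2 stayed called with 25(OH)D under all 13 alternatives.

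A covariate for the library ratio gave 2858 genes for 25(OH)D against control (1250 without it), 6 for added BGP (0 without it), 1651 for added ZK191784 (508 without it), 2691 for 25(OH)D with BGP against control (1187 without it) and 676 for 25(OH)D with ZK191784 against control (104 without it). The stress response genes called were then 6 higher and 5 lower with 25(OH)D, 3 higher and 5 lower with added ZK191784, 5 higher with BGP against control, and 1 higher and 3 lower with ZK191784 against control. The 2 groups alone gave 763 genes and 1 higher for 25(OH)D, 1 lower for added ZK191784, 712 genes and 1 higher for BGP against control, and 42 genes and 0 lower for ZK191784 against control. DESeq2 gave 4 higher with 25(OH)D, 797 genes and 2 lower with added ZK191784, and 257 genes, 1 higher and 2 lower for ZK191784 against control. RLE factors and the CPM filter gave 4 higher with 25(OH)D, and RLE factors 2 lower for ZK191784 against control. No filter gave 2 lower with added ZK191784, and 220 genes and 2 lower for ZK191784 against control. Of 18 same-number pairs of libraries 4 had r over 0.1 (range −0.71 to 0.61). The libraries with the highest ratio of each group deviated alike whatever their number. These were ZK191784 library 1, BGP library 2, 25(OH)D library 1 and control library 3, with r between 0.55 and 0.66. The check therefore cannot tell whether same-number libraries belong together. The replicate block gave 334 genes for added ZK191784 and 56 for ZK191784 against control.

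Leaving out 1 library gave 813 to 1266 genes and 1 to 3 of the stress response genes higher for 25(OH)D against control, fewest genes without 25(OH)D library 2. For added ZK191784 it gave 269 to 428 genes (508 with all, fewest without ZK191784 library 2) and 0 to 1 higher. It gave 1 to 3 higher for BGP against control, and 34 (without ZK191784 library 2) to 119 genes, 0 to 1 higher and 0 to 1 lower for ZK191784 against control. Among the other lists, the covariate gave 6 lower of the other folding enzymes, 7 of the transport genes and 6 of the collagen genes with 25(OH)D, and DESeq2 gave 6 and the covariate 7 lower of the other ATF4 targets with added ZK191784. Without the serine and folate enzymes the chaperone minus ATF4 target difference was −0.15 with 25(OH)D and 0.32 in controls. With medians over all tested genes of both sets it was 0.02 ± 0.11 with 25(OH)D and 0.02 ± 0.36 in controls (SD). RLE moved the median of all genes by at most 0.02. Low counts (Ppp1r15a, Trib3, Atf3) limit what can be called.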
